A study of Danio rerio with 6 samples.

Results

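Ionocytes are cells scattered in the skin of zebrafish larvae that move ions between the body and the surrounding water. Their transport is driven by the sodium pump, the Na+,K+-ATPase, which uses ATP to carry sodium out of the cell and potassium into it, and which is built from a catalytic alpha and a supporting beta subunit. Zebrafish carry a tandem cluster of alpha subunit genes, and different ionocyte types use different members of it: *atp1a1a.2* is known from cells that take up sodium and chloride with the cotransporter encoded by *slc12a10.2* (NCC cells), *atp1a1a.5* from acid-secreting cells rich in the proton pump (HR cells), and *atp1a1a.1* from cells rich in the sodium pump that take up calcium (NaR cells). The forkhead transcription factors *foxi3a* and *foxi3b* direct epidermal precursors to the ionocyte fate, and *ca2* encodes a cytosolic carbonic anhydrase, an enzyme that supplies protons and bicarbonate for transport.

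The genes described here were taken by symbol from a list of 10: *atp1a1a.1*, *atp1a1a.2*, *atp1a1a.3*, *atp1a1a.4*, *atp1a1a.5*, *atp1b1b*, *foxi3a*, *foxi3b*, *ca2* and *slc12a10.2*. Of these, 8 matched 1 gene ID each among the 32057 zebrafish gene IDs of the count table. The names *atp1a1a.1* and *atp1b1b* matched none. The name table gives ATP1B1 to 2 IDs without telling the paralogs apart, and those 2 IDs are described beside the members and are not counted with them. Of the 8 members found, 7 had enough counts to be tested and 1, *slc12a10.2*, did not.

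The libraries were made from regenerating larval tail fins at 24 h post amputation, 50 fins pooled per library, with 3 libraries of larvae labelled WT and kept in the solvent DMSO (control replicates 1 to 3) and 3 of larvae kept in 1 µM rapamycin (replicates 4 to 6). The labels give the rapamycin libraries the genotype "mtor inhibition" and name no mutation, and rapamycin blocks mTOR complex 1, a kinase complex that drives cell growth. Per the study's methods, drug or solvent was given from before the amputation and renewed daily, and the groups compared hold no unamputated fins. Total counts lay between 49055607 and 54162044 per library. Values are given as CPM, counts scaled to a common library size with TMM factors, where 1 count stands for 0.0163 to 0.0226 CPM. CPM are not divided by gene length, so they compare a gene between libraries and not 1 gene with another.

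The libraries held the tissue named in the labels. The fin fold genes *and1* and *and2*, which encode fibre proteins of the larval fin, averaged 39183 and 31407 CPM in the control, and the surface keratin gene *krt4* averaged 31666 CPM. Control replicate 1 stood apart from the other controls, at -8.84 on the first principal component against -77.4 and -92.4, while the rapamycin libraries lay between 59.1 and 60.0. The calls of the members are therefore also given with single libraries left out, and those of the gene lists without control replicate 1.

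In rapamycin fins 1 sodium pump alpha gene was lower and the carbonic anhydrase gene was higher. Among the 7 tested members, *atp1a1a.3* fell 3.23-fold and *ca2* rose 2.11-fold, and the other 5 did not pass the test. Over all 19778 tested genes, 3.27% were called lower and 1.97% higher at an adjusted p under 0.05 from edgeR. In 4 tested members (*atp1a1a.3*, *atp1a1a.5*, *foxi3a* and *foxi3b*) every rapamycin library lay below every control library, and in 1 (*ca2*) every rapamycin library lay above. Over all tested genes these shares were 15.9% below and 14.8% above. For the lists of other genes further below, 23.4% of all tested genes had an unadjusted edgeR p under 0.05 (1989 higher and 2633 lower). A log2 fold change below 0 was found in 49.9% of all tested genes. The shares of all tested genes, higher and lower, were 5.06% and 7.78% called by DESeq2, 2.86% and 3.42% called by limma-voom, and 15.5% and 15.6% called by edgeR without control replicate 1. Calls were few without control replicate 2 or without rapamycin replicate 4, 5 or 6. There edgeR called 47 to 59 genes higher and 65 to 79 lower, of 20276 to 20455 tested. Without control replicate 3 it called 332 higher and 474 lower. The fins were sequenced in bulk, so a changed number of cells and a changed amount of RNA per cell cannot be told apart. Nor can ionocytes be told from other fin cells as the source of the RNA of any of these genes.

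*atp1a1a.3* (ENSDARG00000039131, chromosome 1 of GRCz12tu from 2542168 to 2552588) stood at 21.7, 24.5 and 12.1 CPM in control replicates 1 to 3 and at 4.77, 7.39 and 5.86 CPM in rapamycin replicates 4 to 6. The groups did not overlap, and the lowest control library was still above the highest rapamycin library. The means were 19.4 ± 6.51 and 6.01 ± 1.32 CPM (SD, n = 3 each). The log2 fold change was -1.69 with a standard error of 0.31 (edgeR adjusted p = 0.0176). The call held without control replicate 1 (edgeR adjusted p = 0.00533) and without control replicate 3 (0.00693). It was lost without control replicate 2 (0.0998), and likewise when rapamycin replicate 4 (0.102), 5 (0.0703) or 6 (0.0999) was left out. DESeq2 (adjusted p = 7.83e-06) and limma-voom (0.0173) also called it lower.

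*atp1a1a.2* (ENSDARG00000007739, chromosome 1 from 2525565 to 2533042), the paralog known from NCC cells, varied most among the tested alpha genes other than *atp1a1a.4*, which had libraries at 0. It stood at 18.5, 11.1 and 3.53 CPM in the control libraries and at 2.01, 0.424 and 4.59 CPM in the rapamycin libraries, so rapamycin replicate 6 was above control replicate 3. The highest library held 43.7 times the level of the lowest. The means of 11.0 ± 7.49 CPM and 2.34 ± 2.10 CPM (SD, n = 3 each) gave a log2 fold change of -2.24 (standard error 0.78), which did not pass (adjusted p = 0.127 from edgeR).

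*atp1a1a.5* (ENSDARG00000040252, chromosome 1 from 2575312 to 2587514), the paralog known from HR cells, was scarcer. The control libraries held 2.39, 2.19 and 1.72 CPM and the rapamycin libraries 0.563, 0.995 and 1.23 CPM, with no overlap. These values came from 76 to 147 counts per control library and 30 to 65 counts per rapamycin library. The log2 fold change of -1.17 (standard error 0.43) did not pass (adjusted p = 0.137 from edgeR).

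*atp1a1a.4* (ENSDARG00000001870, chromosome 1 from 2425871 to 2442276) was present in some pools and absent from others in both groups. Its counts were 50, 0 and 91 in control replicates 1 to 3 and 86, 35 and 0 in rapamycin replicates 4 to 6. The means of 0.958 ± 1.04 CPM and 0.753 ± 0.813 CPM (SD, n = 3 each) differed by less than their spread (log2 fold change -0.34, standard error 1.5, adjusted p = 0.909 from edgeR), and the sign turned when control replicate 3 (0.87) or rapamycin replicate 6 (0.25) was left out.

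**Figure D1:**
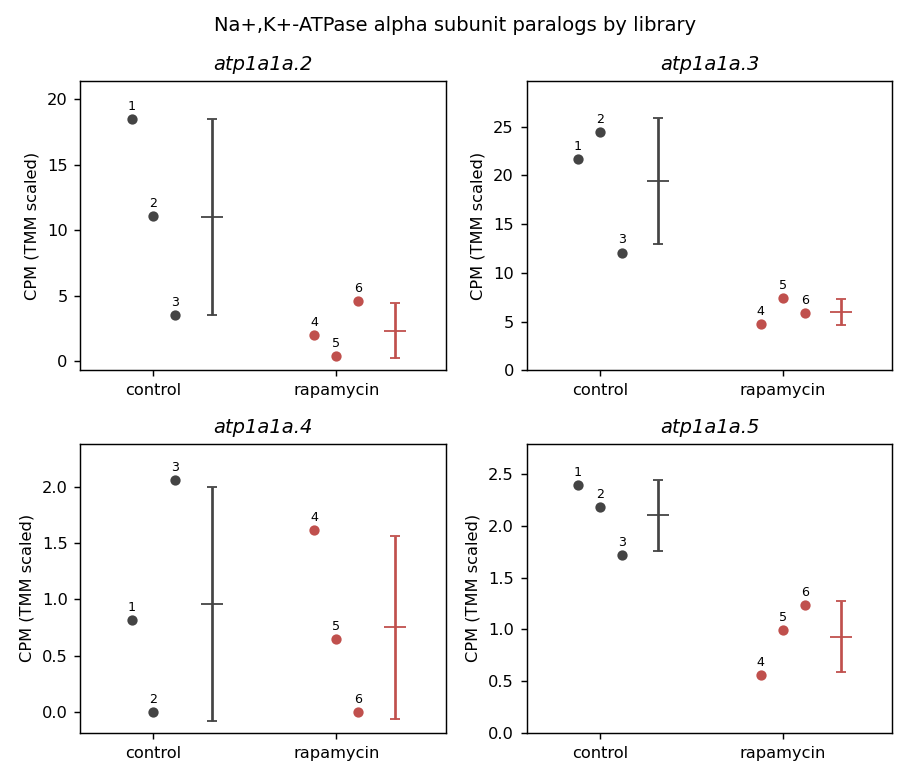
TMM-scaled CPM of the 4 alpha subunit paralogs found by symbol, 1 point per library with its replicate number, and the mean with 1 SD (n = 3) beside each group. Controls lie above the rapamycin libraries in *atp1a1a.3* and *atp1a1a.5*, the groups overlap in *atp1a1a.2*, and *atp1a1a.4* is at 0 in control replicate 2 and rapamycin replicate 6.

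The paralogs are near relatives in 1 cluster, and how the authors' counting split reads that could belong to more than 1 of them is not given in the sources used here. Their sum does not depend on such a split among these 4 genes. The summed counts of *atp1a1a.2* to *atp1a1a.5* stood at 43.4, 37.8 and 19.4 CPM in the control libraries and at 8.96, 9.45 and 11.7 CPM in the rapamycin libraries. All control libraries were above all rapamycin libraries. Fitted as a single gene, the sum fell from 33.5 ± 12.6 CPM to 10.03 ± 1.46 CPM (SD, n = 3 each), which is -1.74 on the log2 scale with a standard error of 0.30 (edgeR adjusted p = 0.0152). This call was lost in some fits without 1 library. The edgeR adjusted p was 0.0919 without control replicate 2 and 0.0935, 0.0885 and 0.0712 without rapamycin replicates 4, 5 and 6. The log2 fold change of the sum stayed between -1.86 and -1.65 in them. With the paralogs kept apart, the same fits called 47 to 59 of all tested genes higher and 65 to 79 lower.

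The share of each paralog in that sum did not differ beyond the spread between libraries. *atp1a1a.3* made up 59.1 ± 7.94% of the summed counts in the control and 60.5 ± 15.4% in the rapamycin libraries (SD, n = 3 each; exact two-sided permutation p = 0.8). *atp1a1a.2* made up 30.1 ± 12.2% and 22.1 ± 17.4% (exact permutation p = 0.6, n = 3 each), ranging from 4.48% in rapamycin replicate 5 to 42.6% in control replicate 1. *atp1a1a.5* made up 6.72 ± 1.86% and 9.12 ± 2.45% (exact permutation p = 0.2, n = 3 each). With 3 libraries against 3 the smallest p such a test can give is 0.1, and all 4 shares had an adjusted p of 0.8. These are shares of counts, not corrected for transcript length.

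The beta subunit, which the pump needs to fold and reach the membrane, is listed under ATP1B1 for 2 IDs. ENSDARG00000076833 stood at 12.4, 10.6 and 6.86 CPM in the control and at 3.94, 3.61 and 6.09 CPM in the rapamycin libraries, with no overlap between the groups. Its log2 fold change of -1.13 (standard error 0.32) did not pass (adjusted p = 0.0734 from edgeR). ENSDARG00000013144 stood between 208 and 295 CPM in the control and between 220 and 227 CPM in the rapamycin libraries (-0.13, standard error 0.18, adjusted p = 0.704).

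Other sodium pump genes were read from 10 further IDs on a list of pump subunits and of FXYD proteins, small membrane proteins that tune the pump. Of the 9 tested none was called by edgeR, while 3 were lower and 0 higher at an unadjusted p under 0.05, DESeq2 called 1 lower and limma-voom 0. Without control replicate 1 edgeR called 4 of them lower (*fxyd11*, *fxyd6l*, *atp1b3a* and *atp1b3b*), in a fit that called 15.6% of all tested genes lower. For *atp1b3a* the control left out, at 102 CPM, was below every rapamycin library (107 to 128 CPM). The same held for *atp1b3b* (75.7 against 86.5 to 98.5 CPM), so the calls of these genes add no support. Without control replicate 3 edgeR called 1 lower (*fxyd11*), and without any other single library it called none. Of the 9, 8 had a log2 fold change below 0 (median -0.33, against 0.00 over all tested genes). *fxyd11*, a FXYD gene known from fish gills, came nearest to a call. It stood at 8.0, 6.10 and 2.67 CPM in the control and at 1.28, 1.27 and 2.20 CPM in the rapamycin libraries, all lower (log2 fold change -1.82, standard error 0.45, adjusted p = 0.0505 from edgeR). *fxyd6l* (-0.45, adjusted p = 0.167), the neuronal alpha subunit gene *atp1a3b* (-1.6, adjusted p = 0.198) and the beta subunit gene *atp1b3a* (-0.33, adjusted p = 0.443) followed and did not pass. A list of 8 more IDs, drawn up after the name table had been seen, held the ATP1B1 IDs above. Of its 6 tested IDs none was called by edgeR, 3 had an unadjusted p under 0.05 and were lower, and DESeq2 called 2 lower and limma-voom 0. Without control replicate 1 edgeR called 3 lower, 1 of them an ATP1B1 ID, beside 15.6% of all tested genes in that fit. Without control replicate 3 it called 1 lower, also an ATP1B1 ID, and without any other single library it called none. With all libraries, beside the ATP1B1 ID ENSDARG00000076833, the lowest p was that of the ATP1B2 ID ENSDARG00000034424 (-1.36, standard error 0.42, adjusted p = 0.0903 from edgeR).

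**Figure D2:**
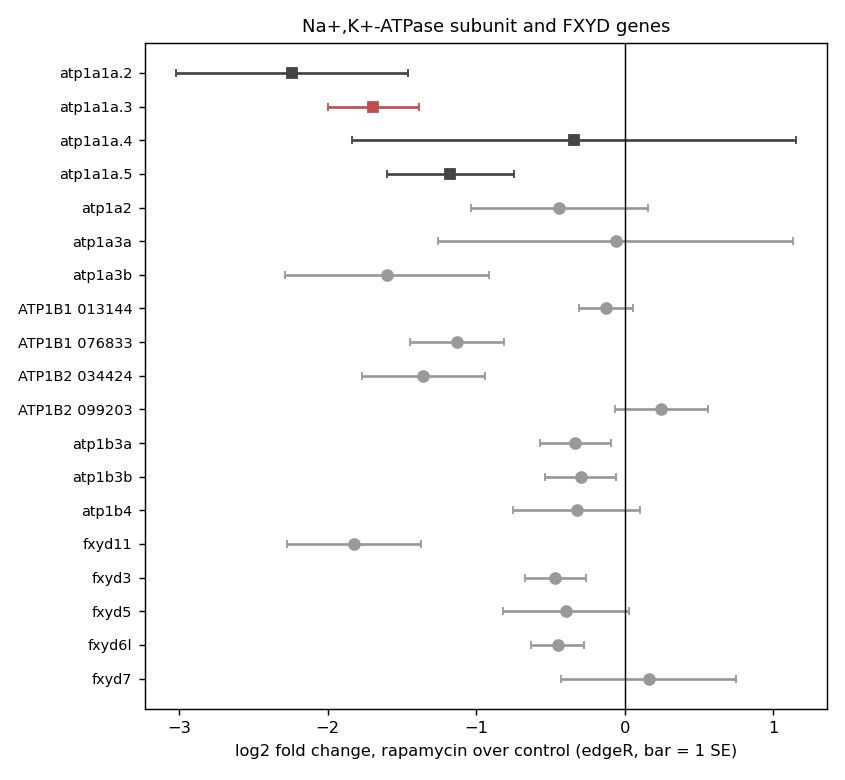
Log2 fold change of rapamycin over control with 1 standard error from edgeR for the 4 alpha paralogs found by symbol (squares) and 15 further tested Na+,K+-ATPase and FXYD genes (circles), where a name held by 2 IDs is followed by the last digits of the ID. *atp1a1a.3* at -1.69 is the only called gene (red) and *fxyd11* at -1.82 lies just short of the threshold.

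*foxi3a* (ENSDARG00000055926, chromosome 21 from 33006909 to 33008603) stood at 2.62, 3.33 and 3.87 CPM in the control and at 2.16, 1.18 and 0.759 CPM in the rapamycin libraries. The groups were separate, with control replicate 1 and rapamycin replicate 4 closest to each other. The log2 fold change of -1.26 (standard error 0.43) did not pass (adjusted p = 0.123 from edgeR) with all libraries, and passed without control replicate 1 (-1.40, adjusted p = 0.0440).

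*foxi3b* (ENSDARG00000009550, chromosome 14 from 39122810 to 39124523) varied little between libraries. It stood at 3.14, 2.64 and 2.69 CPM in the control and at 2.16, 2.19 and 2.33 CPM in the rapamycin libraries, so that every rapamycin library was lower, by a small margin. The log2 fold change was -0.34 (standard error 0.30, adjusted p = 0.530 from edgeR). The test of the difference between the 2 *foxi3* genes was not made. Both genes are short on the chromosome (1695 and 1714 bases), and the fit was repeated with each library's trend of level with gene span removed. In that fit *foxi3b* had a log2 fold change of -0.01 and *foxi3a* one of -0.89 (adjusted p = 0.985 and 0.245 from edgeR).

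Of 12 further IDs on a list of fate and hormone regulators, 10 were tested and none was called by edgeR, DESeq2 or limma-voom, while 1 was higher and 0 lower at an unadjusted p under 0.05. Without control replicate 1 edgeR called 3 higher (*dlc*, *jag1a* and *jag2a*) and 1 lower (*foxi2*). That fit called 15.5% of all tested genes higher and 15.6% lower. For *jag2a* the control left out, at 6.16 CPM, was above every rapamycin library. For *foxi2* the control left out had 0 counts, below every rapamycin library (4, 6 and 16 counts). The calls of *jag2a* and *foxi2* therefore add no support. Of the 10, 8 had a log2 fold change above 0 (median 0.30). The Notch ligand genes *dlc* (0.97, adjusted p = 0.200) and *jag1a* (1.04, adjusted p = 0.290), whose pathway limits how many precursors become ionocytes, the epidermal regulator *tp63* (0.32, adjusted p = 0.328) and *foxi2* (-2.24, adjusted p = 0.368 from edgeR) had the smallest p-values. The related forkhead gene *foxi1* stood at 0.505 to 1.09 CPM in the control and at 0.700 to 1.26 CPM in the rapamycin libraries. *gcm2*, the factor that sets HR cells apart, stood at 1.84, 2.03 and 2.17 CPM and at 1.18, 1.47 and 1.90 CPM (log2 fold change -0.41, adjusted p = 0.532 from edgeR), with overlap.

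*ca2* (ENSDARG00000014488, chromosome 24 from 36836439 to 36854297) went the other way. It stood at 234, 136 and 122 CPM in control replicates 1 to 3 and at 328, 352 and 354 CPM in rapamycin replicates 4 to 6. Every rapamycin library was above every control library, the rapamycin libraries lay close together, and control replicate 1 was the highest of the controls. The means were 164 ± 60.9 CPM and 345 ± 14.2 CPM (SD, n = 3 each). The difference was 1.07 on the log2 scale with a standard error of 0.25 (edgeR adjusted p = 0.0416). Without control replicate 1 it was 1.41 (edgeR adjusted p = 2.63e-04), and the call was lost without any other single library (adjusted p from 0.0761 to 0.186 from edgeR) and with library size as the only scaling (0.101). The difference remained between 0.90 and 1.41 in all 15 alternatives.

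Other carbonic anhydrase genes were read from a list of 12 IDs. Of these, 6 were tested, 4 were at 0 in every library and none of the 6 was called by edgeR (0 higher and 2 lower at an unadjusted p under 0.05, 1 lower in DESeq2 and 0 in limma-voom), with a median log2 fold change of -0.30. Without control replicate 1 edgeR called 3 lower (*ca6*, *ca8* and *cahz*), beside 15.6% of all tested genes in that fit. For *ca6* the control left out, at 287 CPM, was below every rapamycin library (308 to 333 CPM), so its call adds no support. EdgeR called *ca7* lower without rapamycin replicate 4, the only rapamycin library with counts of that gene, so this call adds no support either. *ca7* (log2 fold change -3.63, standard error 1.31, adjusted p = 0.135 from edgeR) had counts of 63, 44 and 86 in the control and 16, 0 and 0 in the rapamycin libraries. It passed the count filter through the controls. *cahz* (-0.53, adjusted p = 0.163), the carbonic anhydrase of fish red blood cells, *ca8* (-0.40, adjusted p = 0.215) and the hypoxia-responsive *ca9* (2.67, standard error 1.48, adjusted p = 0.314) did not pass. *ca9* had counts of 9, 0 and 0 in the control and 10, 34 and 11 in the rapamycin libraries. It passed the count filter through the rapamycin libraries alone, which set its direction. *ca15a*, the membrane-bound carbonic anhydrase of HR cells, stood at 0.665 to 1.303 CPM in the control and 0.209 to 0.792 CPM in the rapamycin libraries (-0.76, adjusted p = 0.520).

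*slc12a10.2* (ENSDARG00000071173, chromosome 7 from 4055750 to 4100722), the sodium chloride cotransporter of NCC cells, was too scarce to test. It had 35, 9 and 0 counts in control replicates 1 to 3 and none in any rapamycin library. Over the group, 0 counts allow up to 3 counts or 0.0187 CPM, so that the pooled control level of 0.278 CPM was at least 14.9-fold higher. Of the 44 control counts 35 came from control replicate 1, and without that library the bound was 4.97-fold. These bounds cover counting error only, and control replicate 3 had no counts either.

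**Figure D3:**
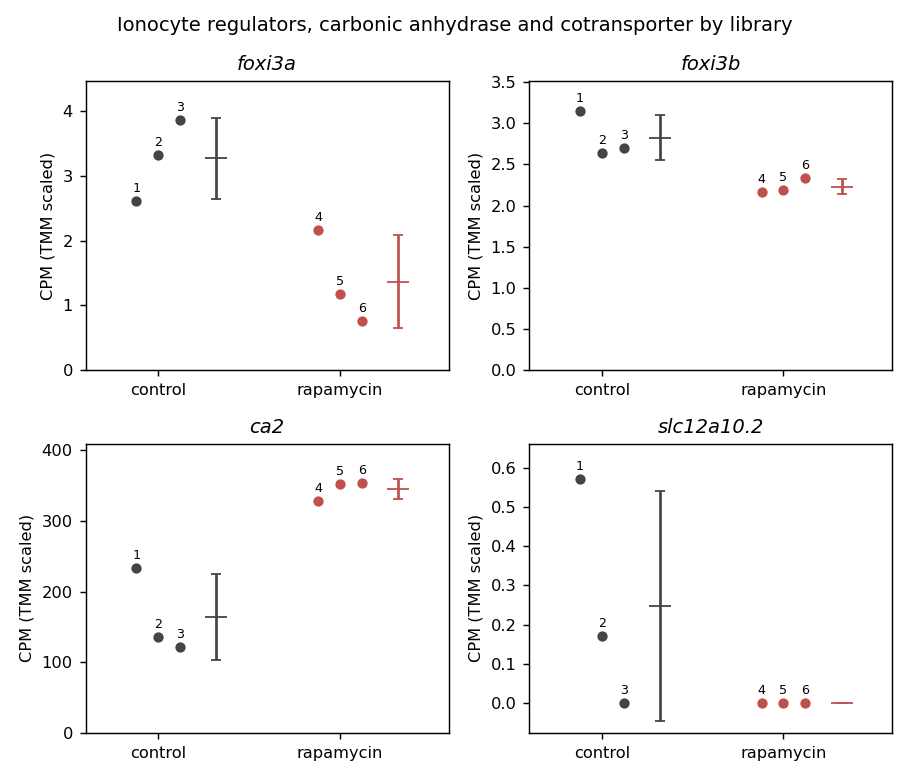
TMM-scaled CPM of *foxi3a*, *foxi3b*, *ca2* and *slc12a10.2*, 1 point per library with its replicate number, and the mean with 1 SD (n = 3) beside each group. *ca2* is higher in every rapamycin library (328 to 354 CPM against 122 to 234 CPM), the rapamycin libraries of both *foxi3* genes lie below the controls though neither gene passed the test (adjusted p = 0.123 and 0.530 from edgeR), and *slc12a10.2* was counted only in control replicates 1 and 2.

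Other genes of the ionocyte types were scarce. The lists for HR, NaR and NCC cells and for potassium and anion transport held 22 gene IDs in this table, of which 9 were tested and 9 were at 0 in every library. None of the 9 tested was called by edgeR, DESeq2 or limma-voom, and 1 was higher and 0 lower at an unadjusted p under 0.05. Of the 9, 8 had a log2 fold change below 0 (median -0.76 over the 9), against 49.9% of all tested genes. Every rapamycin library lay below every control library in 0 of the 9 and above in 1. Over all tested genes these shares were 15.9% and 14.8%, so the groups overlapped in all 8 with a log2 fold change below 0. Among these 8, *slc9a3.2* and *ceacam1* were at 0 in at least 1 rapamycin library. In the HR list *rhbg*, an ammonia channel gene, stood at 55.9, 39.7 and 25.8 CPM in the control and at 31.2, 24.5 and 27.0 CPM in the rapamycin libraries, with overlap (-0.55, adjusted p = 0.252 from edgeR). The HR-list genes *slc26a1* (-1.52, adjusted p = 0.319), *ceacam1* (-1.92, adjusted p = 0.464) and *ca15a* were at 1.303 CPM or less in every library. The sodium proton exchanger gene *slc9a3.2* stood at 0.603, 0.969 and 1.65 CPM in the control and at 0, 1.16 and 0.304 CPM in the rapamycin libraries.

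In the NaR list the calcium channel gene *trpv6* stood at 1.12, 1.597 and 1.06 CPM in the control and at 0.357, 1.29 and 0.740 CPM in the rapamycin libraries (-0.66, adjusted p = 0.513 from edgeR), and the calcium pump gene *atp2b2* had a log2 fold change of -1.10 (adjusted p = 0.266). The chloride channel gene *cftr*, the only tested ID of the list for potassium and anion transport, was the exception in direction among the 9 tested. It stood at 18.4, 12.2 and 9.12 CPM in the control and at 19.4, 19.9 and 21.6 CPM in the rapamycin libraries, all above the controls (0.62, standard error 0.26, adjusted p = 0.195 from edgeR). It was called higher by edgeR without control replicate 1.

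In the NCC list none of the 6 IDs was tested, and 3 were at 0 in every library. The chloride channel gene *clcn2c*, known from NCC cells and chosen here after its values were seen, had 45, 76 and 0 counts in control replicates 1 to 3 and none in the rapamycin libraries. Its pooled control level of 0.765 CPM was at least 40.9-fold higher, a bound that was 22.8-fold without control replicate 2. These bounds cover counting error only, and the groups overlapped because control replicate 3 had no counts either. Without control replicate 3, the control library at 0, *clcn2c* passed the count filter through the remaining controls alone. It was then called lower by edgeR. The call came with leaving out the control that matched the rapamycin libraries, so it adds no support. The other cotransporter genes of the list, *slc12a10.1* and *slc12a10.3*, had at most 3 counts in any library.

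Among the tested members, levels went together to different degrees over the 6 libraries, which include both treatments, so the values below describe the libraries and are no test. Pearson's r of log2 CPM was 0.92 between *atp1a1a.3* and *atp1a1a.5*, 0.89 between *atp1a1a.5* and *foxi3b*, 0.86 between *atp1a1a.3* and *foxi3b* and 0.58 between *foxi3a* and *foxi3b*. It was -0.85 between *foxi3a* and *ca2*, and between -0.33 and 0.38 for *atp1a1a.4* with any other member. Of 9779 other genes with a symbol and a mean log2 CPM of at least 3, those nearest to *atp1a1a.3* were *c1ql1* (r = 0.99 over 6 libraries), si:dkeyp-55f12.3 (0.99) and *slc7a2* (0.99), and those nearest to *foxi3b* were TMED8 (0.99), PKP1 (0.99) and TWSG1 (0.98).

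Some markers of other cells also differed between the groups. Of 3 markers of neuromasts, the sensory organs of the skin, 2 fell, *s100t* (-1.66) and *s100s* (-2.21), with a summed level of 352 to 565 CPM in the control and 128 to 170 CPM in the rapamycin libraries. Of 5 tested red blood cell markers 2 fell (summed level 105 to 120 against 34.4 to 49.5 CPM) and of 5 tested neuron and glia markers 1 fell (13.1 to 19.5 against 6.72 to 11.3 CPM). Of 11 tested macrophage markers 2 fell, *c1qa* and *c1qb*, from means of 2.19 and 4.98 CPM in the control. *c1qa* had counts of 102, 136 and 102 in the control and 0, 4 and 0 in the rapamycin libraries. It passed the count filter through the controls alone, which set its direction, so its call adds no support. Of the 11, 8 had a log2 fold change below 0 and 3 above. Among the latter was *csf1ra* (0.76, adjusted p = 0.168 from edgeR), with every rapamycin library above every control library. The summed macrophage level (157 to 325 against 123 to 158 CPM) came mostly from MFAP4 IDs, none of which was called. Of 9 periderm markers 3 rose (40199 to 50571 against 50359 to 62464 CPM), and of 9 basal keratinocyte markers 1 rose (7030 to 8216 against 8398 to 9416 CPM). None of the 9 fin fold mesenchyme, 5 mucous goblet cell and 4 muscle markers tested was called.

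These marker calls are from edgeR and changed with the libraries used, as did the calls over all genes. Without control replicate 1 the periderm and basal keratinocyte markers had 6 called higher each, in a fit that called 15.5% of all tested genes higher and 15.6% lower. For *col17a1a* the control left out, at 499 CPM, was above every rapamycin library (319 to 453 CPM). The same held for *col17a1b* (63.3 against 32.5 to 41.1 CPM), *col7a1* (6.99 against 2.16 to 4.62 CPM) and *itgb4* (76.6 against 45.8 to 56.7 CPM). The calls of these basal markers add no support. In that fit the macrophage markers had 5 called lower, *c1qa* among them, and 1 higher. The fin fold markers had 2 called higher and 3 lower, and the goblet cell markers 2 higher. Among those called lower, *msx3* stood at 238 CPM in the control left out, below every rapamycin library (264 to 329 CPM). The same held for *hoxa13b* (148 against 163 to 180 CPM), so these calls add no support either. Without control replicate 2 no periderm, basal keratinocyte, macrophage or neuron marker was called. That fit called 47 genes higher and 68 lower of all 20276 tested, so the missing calls are not particular to these markers. *s100s* was called lower with each of the 6 libraries left out in turn. The part of these cells in the changes of the pump genes and of *ca2* was not tested.

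The pronephros also expresses sodium pumps. Of 6 markers of it found, 2 were tested and neither was called by edgeR, while 1 was called higher by DESeq2. The summed level was 6.32 to 7.59 CPM in the control and 8.60 to 12.2 CPM in the rapamycin libraries, most of it in every library from *trpm7*. *slc13a1* stood at 0.163, 0.304 and 0.611 CPM in the control and at 1.45, 1.49 and 1.76 CPM in the rapamycin libraries, all higher (log2 fold change 2.13, standard error 0.595, adjusted p = 0.0711 from edgeR), and was called higher without control replicate 1 or 3. *trpm7*, expressed in many cells, had a log2 fold change of 0.43 (adjusted p = 0.356). *cubn* had no counts in the control and 38, 8 and 0 in the rapamycin libraries, *slc12a3* was at 0 throughout, and *cdh17* and *slc12a1* averaged 0.215 and 0 CPM in the control and 0.0430 and 0.135 CPM in the rapamycin libraries.

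**Figure D4:**
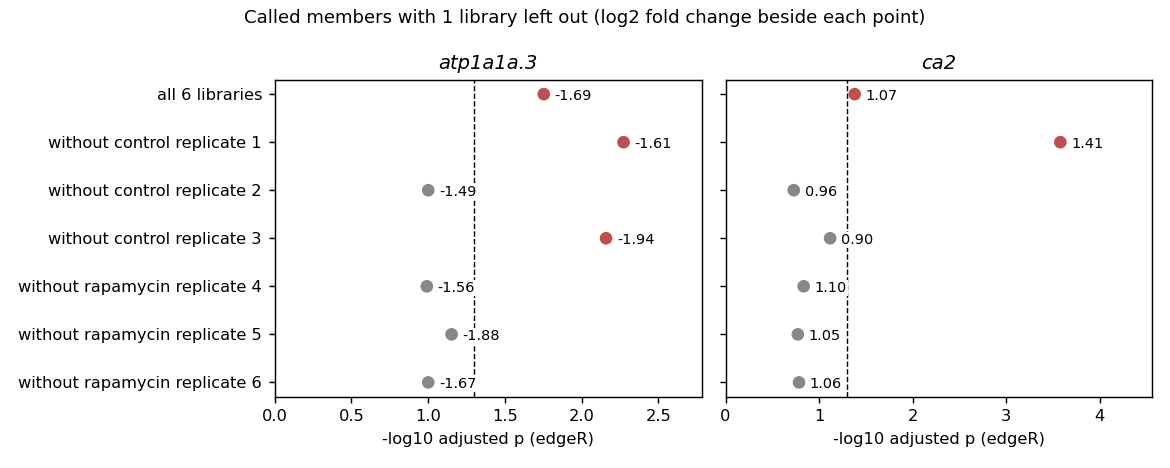
Minus log10 of the adjusted p from edgeR for *atp1a1a.3* and *ca2* with all 6 libraries and with each library left out, with the log2 fold change beside each point and the threshold of 0.05 as a dashed line. Red points pass. The fold changes keep their sign throughout, and only the fits without control replicate 1, or for *atp1a1a.3* also without control replicate 3, keep the call.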

How the data were processed

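The 6 libraries were made by SMART-seq. The authors extracted total RNA with Trizol, made cDNA with SMARTScribe reverse transcriptase, fragmented and amplified it and sequenced it in paired ends. The deposited table holds raw counts per Ensembl gene, with no normalization. Aligner, counter and annotation: not given in the sources used here, and the submitters' processing notes name only the mouse build mm10, although every ID is a zebrafish ID.

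Symbols came from a table that names 28988 of 32057 IDs and were matched ignoring case. The ID named DLD was left out of the regulator list because the name in capitals is shared with other genes. Positions and spans were matched by symbol to RefSeq, GRCz12tu. No transcript lengths or sequences were used, so the shares of the alpha paralogs, planned per coding length, are shares of counts.

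The main test was run with edgeR 4.0.16 in R 4.3.3 (filterByExpr, TMM, robust quasi-likelihood test, no covariate), with Benjamini and Hochberg adjustment over all tested genes and a threshold of 0.05. Each standard error is the absolute log2 fold change over the square root of F. Log2 CPM used a prior count of 2. The code was tested on simulated data. Alternatives were DESeq2 1.42.0 (size factors, Wald test), limma 3.58.1 (voom), upper quartile and library size scaling, no filter on low counts, a minimum of 10 counts per library, summed paralogs, a loess correction for gene span and leaving out each library. Leaving out libraries for the gene lists and the counting bounds was added after seeing the data.

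The members, lists and tests were chosen with earlier results of these data known. The list of further pump IDs leaves out 1 name that is not reported here. Named genes are the members, up to 4 genes per list with the smallest adjusted p, and the 3 genes most like the highest alpha and *foxi3* members; *foxi1*, *gcm2*, *slc9a3.2*, *clcn2c* and single markers were named in addition, after their values were seen. The design text calls the 3 libraries of a group biological replicates without naming clutches, so p-values measure the spread between pools of fins. Counting limits cover counting error only.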

Additional observations from a re-analysis of the deposited data

How the results depend on the processing

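The log2 fold changes of *atp1a1a.2*, *atp1a1a.3*, *atp1a1a.5*, *foxi3a*, *foxi3b* and *ca2* kept their sign in every alternative run, with ranges of -3.18 to -1.66 for *atp1a1a.2* and -1.76 to -0.89 for *foxi3a*. That of *atp1a1a.4* ranged from -1.56 without rapamycin replicate 4 and turned to 0.87 without control replicate 3 and to 0.25 without rapamycin replicate 6. With all 6 libraries the members called were 1 higher and 1 lower, and 0 were called higher with library size as the only scaling. Leaving out 1 library gave 0 to 1 members called higher and 0 to 2 called lower. Over all genes edgeR called 390 higher and 647 lower, DESeq2 1000 and 1539, and the fits without 1 library 47 to 3128 higher and 65 to 3151 lower, the largest counts without control replicate 1. The causes were not tested. The summed alpha paralogs had a log2 fold change of -2.02 to -1.52 without 1 library and lost the call in 4 of those 6 fits. A span was known for 67.5% of tested genes, so the span correction is void for counts over all genes and is given for members only. No paired analysis was possible because the groups share no replicate numbers. Low counts limit *atp1a1a.4*, *slc12a10.2* and most ionocyte transporters.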
